A study of Arabidopsis thaliana with 6 samples.

Results

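The genes described here are 9 Arabidopsis thaliana regulators of the shoot meristem, of organ boundaries and of the replum. They were taken by locus from a table of 27779 gene rows, and all 9 had a row. They comprise the class I KNOX homeobox genes STM (AT1G62360), KNAT1 (AT4G08150), KNAT2 (AT1G70510) and KNAT6 (AT1G23380), the BELL homeobox gene RPL (AT5G02030), the MYB gene AS1 (AT2G37630) and the NAC genes CUC1 (AT3G15170), CUC2 (AT5G53950) and CUC3 (AT1G76420). Their transcripts were measured by RNA-seq in siliques, the seed-bearing fruits, at 3 days after pollination. The libraries were 3 of the mutant agc1-4 and 3 of WT. The labels named the mutant but did not describe its allele. The sample descriptions call the mutant libraries sr and the WT libraries Col, without spelling out either name, and plant growth is not given in the sources used here. The labels call the libraries triplicates and do not tie them to plants or pools of plants, so the p-values rest on library-to-library spread that could be technical alone.

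Class I KNOX proteins keep cells of the shoot meristem from differentiating, and they raise cytokinin and lower gibberellin there. They act in pairs with BELL proteins, which help bring them into the nucleus. CUC proteins mark the boundaries between organs and promote KNOX expression in the embryo, while AS1 with its partner AS2 keeps KNOX genes off in leaves. In the fruit the same genes pattern the replum, the strip of tissue between the valves: RPL and KNAT1 promote replum identity, and AS1 limits replum width from the valve side.

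Total counts per library ranged from 7973366 to 11812934, and a count of 3, the most that an observed 0 allows, corresponded to 0.254 to 0.376 CPM (counts scaled to library size); such limits cover counting error only. The leading principal component of log2 CPM (49.7% of the variance) split agc1-4 from WT, and the next (14.8%) set WT replicates 2 and 3 apart, at 15.2 and -18.85 against -3.81 to 3.88 in the other libraries. AT5G40030, taken as AGC1-4 from background knowledge, had 2, 7 and 1 counts in agc1-4 and 10, 39 and 16 in WT (log2 fold change -2.66 with an SE of 0.54, adjusted p = 0.000983). Genes that mark the fruit were present, among them the valve margin genes SHP1, at 207 ± 11.6 FPKM in agc1-4 and 183 ± 13.4 in WT, and ALC, at 116 ± 8.46 FPKM in agc1-4 and 105 ± 3.38 in WT (SD, n = 3 each). FPKM count fragments relative to gene length and library size and so allow levels of genes to be compared.

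Of the 9 genes, 4 were lower in agc1-4 than in WT at an adjusted p under 0.05, namely RPL, STM, KNAT1 and KNAT6, and 0 were higher. Another 3, KNAT2, AS1 and CUC3, were tested and not called. CUC1 and CUC2 had too few counts to be tested. The 4 called genes were 1.25-fold to 1.86-fold lower. Among all 18828 genes tested, 7.07% were called lower and 6.55% higher. The 7 tested members had a median log2 fold change of -0.41, where the median of all tested genes was 0.00. CUC1 and CUC2 are not in that median. The members were chosen with earlier results of these data known, so their calls and median only describe them. In siliques, which mix many tissues, fewer cells of a type and less RNA per cell cannot be told apart.

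**Figure D1:**
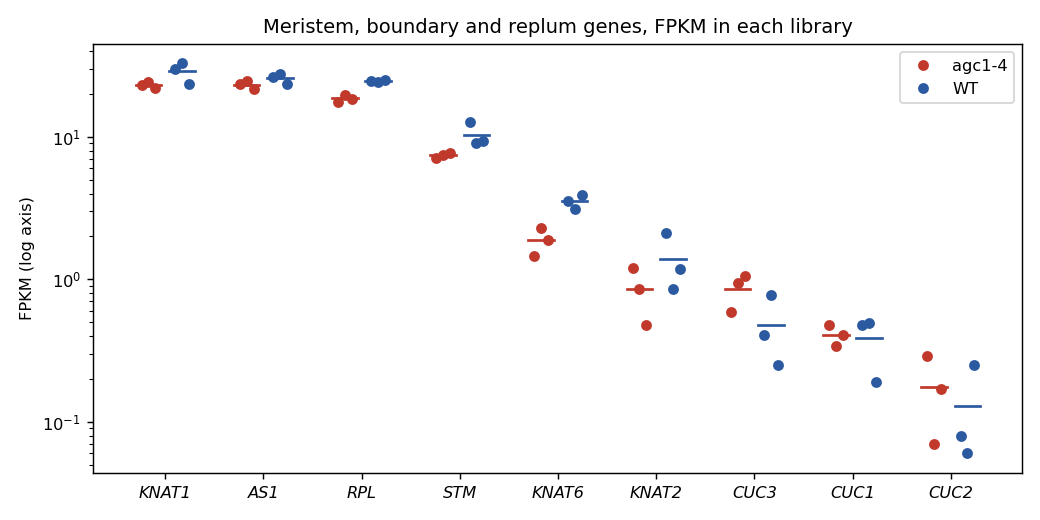
FPKM (log axis) of each of the 9 genes in each library, agc1-4 in red and WT in blue, with a line at the mean of 3 libraries. RPL, STM and KNAT6 show no overlap between genotypes, and the CUC genes lie at or below 1.05 FPKM in all 6 libraries.

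RPL encodes the BELL protein that maintains replum identity by holding valve margin genes out of the replum. Its level was 17.69, 19.68 and 18.45 FPKM in agc1-4 replicates 1 to 3 and 24.70, 24.28 and 25.01 FPKM in WT replicates 1 to 3. Every agc1-4 library was below every WT library, and the WT values lay close together. The means were 18.6 ± 1.0 FPKM in agc1-4 and 24.7 ± 0.366 FPKM in WT (SD, n = 3 each). RPL fell 1.33-fold (log2 fold change -0.41 with an SE of 0.08, 95% interval -0.56 to -0.25, adjusted p = 0.000352). It was called in each of the 12 alternative analyses, the 6 fits without 1 library among them, with log2 fold changes of -0.45 to -0.36 and adjusted p-values up to 0.00855.

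STM is the KNOX gene needed to form and keep the shoot meristem, and it also acts in carpel development. STM had 7.10, 7.47 and 7.73 FPKM in agc1-4 replicates 1 to 3 and 12.69, 9.11 and 9.33 FPKM in WT replicates 1 to 3. The genotypes did not overlap, and WT replicate 1 stood above the other WT libraries. The means were 7.43 ± 0.317 FPKM in agc1-4 and 10.4 ± 2.01 FPKM in WT. STM fell 1.39-fold (log2 fold change -0.48 with an SE of 0.14, adjusted p = 0.0177). Without WT replicate 1 the log2 fold change was -0.31 and the call was lost (adjusted p = 0.167). The call was also lost without agc1-4 replicate 1 or 2 (adjusted p = 0.0873 and 0.065), in DESeq2 (adjusted p = 0.0755) and in limma (adjusted p = 0.0569 and 0.0571).

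KNAT1, also called BREVIPEDICELLUS, shapes pedicels and internodes and acts with RPL in the replum. KNAT1 had 23.14, 24.37 and 22.08 FPKM in agc1-4 replicates 1 to 3 and 30.02, 32.75 and 23.54 FPKM in WT replicates 1 to 3. WT replicate 3 lay inside the agc1-4 range, so the genotypes overlapped. The means were 23.2 ± 1.15 FPKM in agc1-4 and 28.8 ± 4.73 FPKM in WT. KNAT1 fell 1.25-fold (log2 fold change -0.32 with an SE of 0.09, adjusted p = 0.0256). Of the 6 fits without 1 library, only the one without WT replicate 3 kept the call, with a log2 fold change of -0.44 (adjusted p = 0.000209). In the other 5 fits the log2 fold change was -0.35 to -0.21 (adjusted p = 0.0576 to 0.117), and DESeq2 and limma did not call it either (adjusted p = 0.0699 to 0.124).

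KNAT6 acts redundantly with STM in the embryonic meristem and is held in check by RPL and KNAT1 in stems. It was weakly expressed, with 24, 31 and 21 counts in agc1-4 replicates 1 to 3 and 41, 51 and 46 counts in WT replicates 1 to 3. In FPKM these were 1.45, 2.31 and 1.88 in agc1-4 and 3.52, 3.12 and 3.94 in WT. The genotypes did not overlap. The means were 1.88 ± 0.430 FPKM in agc1-4 and 3.53 ± 0.410 FPKM in WT. KNAT6 fell 1.86-fold (log2 fold change -0.90 with an SE of 0.25, adjusted p = 0.0142), with a 95% interval of -1.41 to -0.39 that also covers the estimates for STM and RPL. The call was lost without agc1-4 replicate 1, the library with its lowest FPKM (log2 fold change -0.71, adjusted p = 0.108), and in DESeq2 (adjusted p = 0.0744).

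KNAT2 is the closest relative of KNAT6. It had 1.21, 0.86 and 0.48 FPKM in agc1-4 replicates 1 to 3 and 2.11, 0.85 and 1.18 FPKM in WT replicates 1 to 3. The values overlapped between genotypes, and they rested on 43 counts over the agc1-4 libraries and 63 over the WT libraries. The log2 fold change was -0.63 ± 0.37 (SE), with a 95% interval of -1.39 to 0.13 (adjusted p = 0.297). Without 1 library the log2 fold change ranged from -0.97 (without agc1-4 replicate 1) to -0.28 (without WT replicate 1), and KNAT2 was not called in any of the 12 alternatives. KNAT2 and KNAT6 share an identical stretch of 41 bases in their RefSeq transcript models (assembly TAIR10.1), the longest between any pair of the 9 genes, while the next longest, between CUC1 and CUC3, was 23 bases. All deposited counts of both KNAT genes were whole numbers; the read length was not given in the sources used here.

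The summed level of the 4 KNOX genes was 32.90, 35.01 and 32.17 FPKM in agc1-4 replicates 1 to 3 and 48.34, 45.83 and 37.99 FPKM in WT replicates 1 to 3. All agc1-4 sums were below all WT sums, and WT replicate 3 was the lowest of the WT libraries. KNAT1 made up 68.6% to 70.3% of the sum in agc1-4 libraries and 62.0% to 71.5% in WT libraries, and STM made up 21.3% to 24% and 19.9% to 26.3%. These shares overlapped between genotypes. The KNAT6 share did not overlap. It was 4.41%, 6.60% and 5.84% in agc1-4 replicates 1 to 3 and 7.28%, 6.81% and 10.4% in WT replicates 1 to 3. The nearest values, 6.60% and 6.81%, lay close together and rested on only 31 and 51 KNAT6 counts. A difference in this share was not tested. The ratio of RPL to KNAT1 FPKM overlapped between genotypes, at 0.764 to 0.836 in agc1-4 libraries and 0.741 to 1.06 in WT libraries. It was highest in WT replicate 3.

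AS1 encodes a MYB protein that represses KNOX genes in lateral organs. AS1 had 23.48, 24.71 and 21.70 FPKM in agc1-4 replicates 1 to 3 and 26.30, 27.57 and 23.32 FPKM in WT replicates 1 to 3. WT replicate 3 lay inside the agc1-4 range. The log2 fold change was -0.14 ± 0.08 (SE), with a 95% interval of -0.31 to 0.02 (adjusted p = 0.26), and 0 of 12 alternatives called it. AS1 is the only one of the 9 genes that overlaps another gene in the RefSeq annotation, the actin gene ACT1 (AT2G37620) on the opposite strand, and the only one whose deposited counts were not whole, with 332.19 to 532.57 counts in agc1-4 and 377.40 to 617.46 counts in WT. Whether the libraries kept strand was not given in the sources used here, so reads from the overlap could belong to either gene. ACT1 itself was not called (adjusted p = 0.687).

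**Figure D2:**
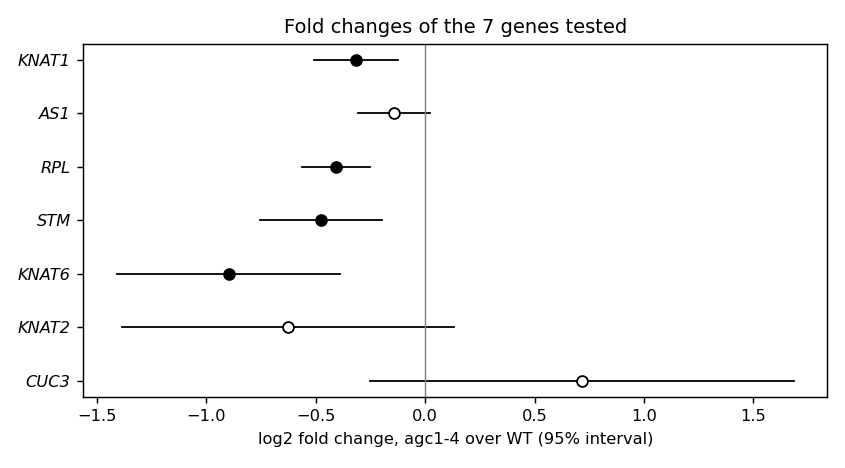
Log2 fold changes of agc1-4 over WT (horizontal axis) with 95% intervals for the 7 genes tested, from the highest mean WT level at the top to the lowest at the bottom. Filled points mark the 4 genes called lower, and the intervals of AS1, KNAT2 and CUC3 include 0.

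The CUC genes, NAC transcription factors of organ boundaries, were barely detected. CUC3 had 10, 13 and 12 counts in agc1-4 replicates 1 to 3 and 5, 13 and 3 counts in WT replicates 1 to 3, or 0.59 to 1.05 FPKM in agc1-4 and 0.25 to 0.78 FPKM in WT. The ranges overlapped. Its log2 fold change was 0.71 ± 0.47 (SE), with a 95% interval of -0.25 to 1.68 (adjusted p = 0.36). Without 1 library it ranged from 0.44 (without WT replicate 3) to 1.31 (without WT replicate 2), and it was not called in any fit that tested it.

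CUC1 had 7, 4 and 4 counts in agc1-4 and 5, 7 and 2 counts in WT. Without a filter on low counts its log2 fold change was 0.06, with a 95% interval of -1.32 to 1.45. CUC2 had 5, 1 and 2 counts in agc1-4 and 1, 1 and 3 counts in WT, and 5 of the 6 libraries held 3 counts or fewer. A difference in CUC1 or CUC2 was therefore not detectable at this depth unless it was large.

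By level, KNAT1, AS1 and RPL were the highest of the 9 genes in both genotypes, and the CUC genes with KNAT2 were the lowest. In agc1-4 the order of mean FPKM was AS1 (23.3), KNAT1 (23.2), RPL (18.6), STM (7.43), KNAT6 (1.88), CUC3 (0.86), KNAT2 (0.85), CUC1 (0.41) and CUC2 (0.177). In WT it was KNAT1 (28.8), AS1 (25.7), RPL (24.7), STM (10.4), KNAT6 (3.53), KNAT2 (1.38), CUC3 (0.48), CUC1 (0.387) and CUC2 (0.13). Ranges of neighbours overlapped in agc1-4 between AS1 and KNAT1, between CUC3 and KNAT2 and between KNAT2 and CUC1. In WT they overlapped between KNAT1 and AS1, between AS1 and RPL, between CUC3 and CUC1 and between CUC1 and CUC2. RPL thus stood clear below AS1 and KNAT1 in agc1-4, while in WT its range overlapped those of both. That overlap came from WT replicate 3, with RPL at 25.01, AS1 at 23.32 and KNAT1 at 23.54 FPKM. In WT replicates 1 and 2 RPL was below both genes, as in agc1-4. Among genes with a WT level above 0, KNAT1 lay at percentile 79.2, RPL at 75.6, STM at 52.4, KNAT6 at 33.0 and CUC2 at 7.76.

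**Figure D3:**
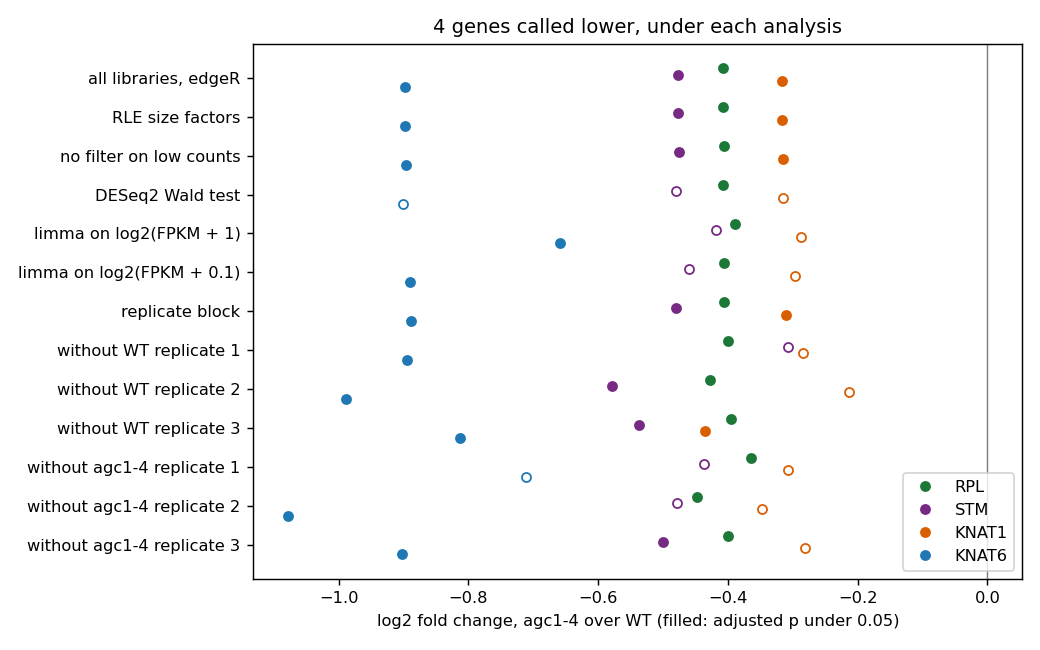
Log2 fold changes of agc1-4 over WT (horizontal axis) of the 4 genes called lower, under edgeR with all libraries and under 12 alternatives (rows); filled points have an adjusted p under 0.05. All values lie below 0; RPL is filled in every row, KNAT6 in all but 2 alternatives, STM in 6 of 12 and KNAT1 in 4 of 12.

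FPKM of the genotypes did not overlap, with agc1-4 lower, for 3 of the 9 genes (RPL, STM and KNAT6), all among the 7 tested. The share among all 18828 tested genes was 15.0%. DESeq2 called 1 of the 9 genes, RPL, and 3.74% of all genes it tested were called lower. Limma on log2(FPKM + 1) called RPL and KNAT6, with 4.56% of all genes called lower, and the same 2 genes with a pseudocount of 0.1, with 4.45% of all genes called lower. Without agc1-4 replicate 1, RPL was the only member called, where 4.57% of all genes were called lower. Without WT replicate 1 or without agc1-4 replicate 2, only RPL and KNAT6 were called, against 4.88% and 4.34% of all genes called lower. Without WT replicate 2 or without agc1-4 replicate 3, RPL, STM and KNAT6 were called, against 6.96% and 4.55% of all genes. The same 4 genes as with all libraries were called without WT replicate 3, with RLE size factors and with no filter on low counts, where 7.19%, 7.05% and 6.16% of all genes were called lower.

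Beyond the 9 genes, 58 genes of the same pathway were listed in 6 groups by role, and 45 had enough counts to be tested. Of these, 7 fell and 1 rose in agc1-4, with a median log2 fold change of -0.10, where 7.07% of all tested genes were called lower and 6.55% higher. Among 10 tested relatives and partners in the KNOX and BELL families, the BELL gene BLH1 fell 1.14-fold and KNAT7, a class II KNOX gene of secondary wall formation, rose 1.18-fold (adjusted p = 0.0423 and 0.00441). KNAT7 had 91.44, 92.98 and 89.96 FPKM in agc1-4 replicates 1 to 3 and 76.00, 81.23 and 74.18 FPKM in WT replicates 1 to 3. Its levels were higher in every agc1-4 library, and it was called in 12 of 12 alternatives. PNF, the closest relative of RPL, had an estimate of -0.30 ± 0.13 (SE) on the log2 scale (adjusted p = 0.124). The BLH1 call was lost in 8 of 12 alternatives.

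Of the stem cell group, the receptor kinase genes CLV1, BAM2 and BAM3 were lower in agc1-4, and WUS and CLV3, which define the stem cell niche, were at or near 0 in both genotypes. WUS, which marks the organizing centre of the meristem, was listed at 0 counts in all 6 libraries, and CLV3, the stem cell peptide gene, had 1 count in agc1-4 replicate 1 and 0 in the other libraries. Of 6 tested genes of this group 3 fell and 0 rose, where 7.07% of all tested genes were called lower and 6.55% higher. CLV1, the receptor kinase gene for that peptide, had 11.28, 10.96 and 10.46 FPKM in agc1-4 replicates 1 to 3 and 13.32, 13.77 and 13.74 FPKM in WT replicates 1 to 3, a 1.25-fold fall without overlap (adjusted p = 0.00447). Its relatives BAM3, a phloem receptor kinase gene, and BAM2 fell 1.38-fold and 1.29-fold (adjusted p = 0.00235 and 0.00489). CLV1 and BAM3 were called in 12 of 12 alternatives and BAM2 in 9 of 12. BAM1, CLV2 and CRN were not called with all libraries in edgeR (adjusted p = 0.132, 0.62 and 0.6145).

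Of the genes that act downstream of KNOX proteins in hormone metabolism, 1 of 7 tested fell and 0 rose. Among all tested genes 7.07% were called lower and 6.55% higher. GA2OX2, which inactivates gibberellin and is activated by KNOX proteins around the meristem, had 9.39, 8.91 and 9.67 FPKM in agc1-4 replicates 1 to 3 and 11.81, 14.81 and 13.13 FPKM in WT replicates 1 to 3. The genotypes did not overlap and the gene fell 1.43-fold (adjusted p = 0.00145), with a call in 12 of 12 alternatives. GA2OX4 and IPT5, of the same group, were not called, at 0.01 ± 0.34 and -0.05 ± 0.16 on the log2 scale (SE, adjusted p = 0.99 and 0.885). The gibberellin synthesis genes GA20OX1 and GA20OX2, repressed by KNOX proteins, had log2 fold changes of 0.28 ± 0.45 and -0.11 ± 0.08 (SE, adjusted p = 0.752 and 0.44). The cytokinin response genes ARR5 and ARR7 were not called, at -0.54 ± 0.22 and 0.29 ± 0.11 on the log2 scale (SE, adjusted p = 0.104 and 0.0998).

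Of 9 tested genes of fruit patterning around the replum, FUL, the valve identity gene, was the only one called with all libraries in edgeR. It had 56.00, 55.69 and 45.27 FPKM in agc1-4 replicates 1 to 3 and 59.89, 58.25 and 57.56 FPKM in WT replicates 1 to 3, with agc1-4 replicate 3 well below the rest. FUL fell 1.18-fold (adjusted p = 0.0411), and the call was lost in 7 of 12 alternatives. With all libraries in edgeR, 7.07% of all tested genes were called lower. SHP1 and IND, which RPL keeps out of the replum, had log2 fold changes of 0.16 ± 0.06 and 0.01 ± 0.13 (SE, adjusted p = 0.0543 and 0.988), SHP1 with counts that were not whole. SHP1 was called higher in 4 of 12 alternatives, among them without WT replicate 2 (adjusted p = 0.006), without agc1-4 replicate 1 (adjusted p = 0.0416) and without the filter on low counts (adjusted p = 0.037). NTT, a replum and septum gene, was at -0.39 ± 0.20 on the log2 scale (SE, adjusted p = 0.226).

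Of 7 tested genes of lateral organs, only PHB, a gene of the upper organ face, was called. It fell 1.19-fold (adjusted p = 0.0428), and its call was lost in 8 of 12 alternatives. The share of all tested genes called lower was 7.07%. AS2, the partner of AS1, was at 0.00 ± 0.16 (SE) on the log2 scale (adjusted p = 0.996). Of 13 boundary genes 6 were tested and 0 were called; the lowest p-values belonged to TCP24 and TCP4, members of the TCP family that restrains CUC genes, at -0.25 ± 0.10 and -0.26 ± 0.12 on the log2 scale (SE, adjusted p = 0.0965 and 0.171). The other 7 boundary genes had too few counts for a test, and BOP1 was listed at 0 counts in all 6 libraries.

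**Figure D4:**
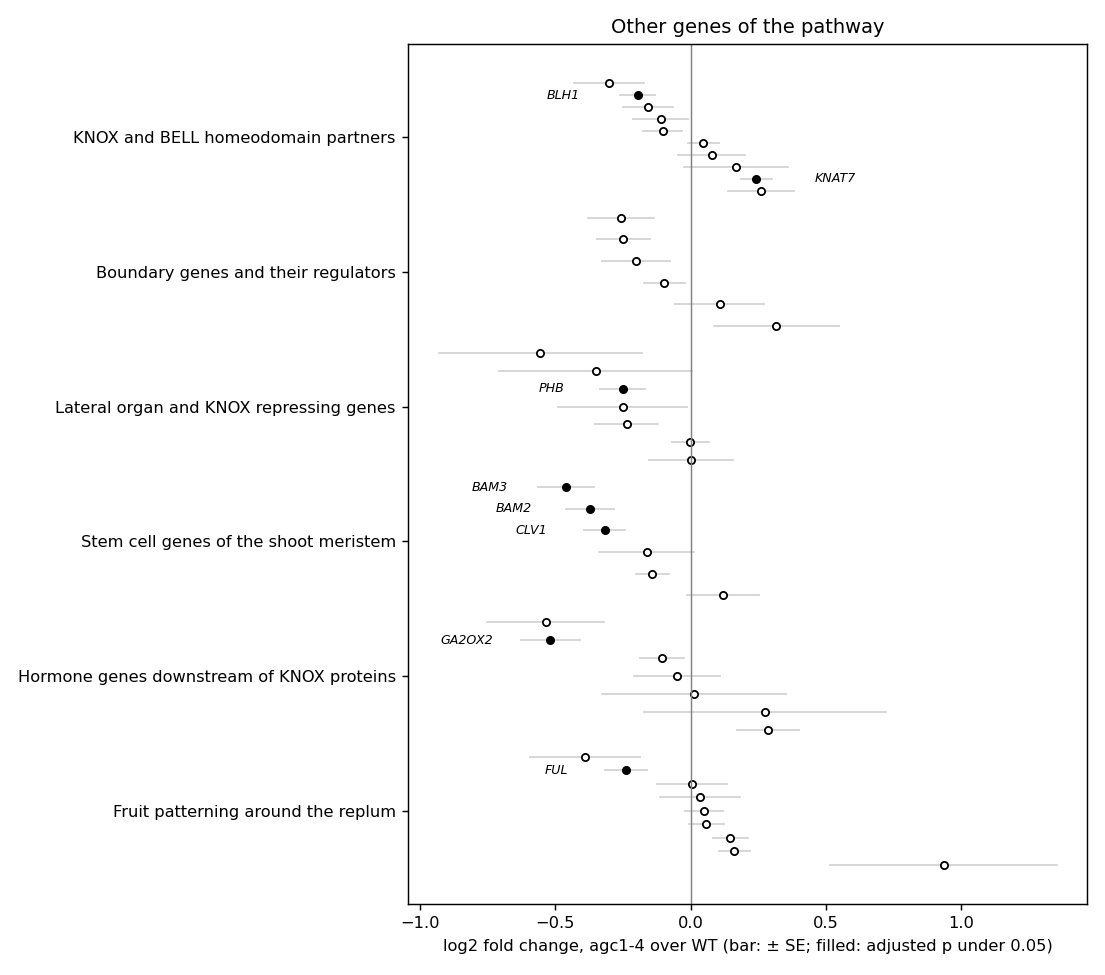
Log2 fold changes of agc1-4 over WT (horizontal axis, bars ± SE) of the 45 tested genes in 6 groups (rows). Filled and named points mark the 7 genes called lower and the 1 called higher.

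The genes whose log2 CPM over the 6 libraries was most like that of RPL, among 18182 non-member genes with a mean of at least 1 FPKM, were TIP2-1, an aquaporin gene (Pearson r = 0.998), BAS (AT1G78950), a terpenoid cyclase gene (r = 0.995), and AT5G44680, a DNA glycosylase family gene (r = 0.995). All 3 fell in agc1-4 (log2 fold changes -0.43, -0.51 and -0.40). For STM the most like genes were the starch synthase gene SS1 (r = 0.995), AT2G36080, which encodes a B3 domain protein (listed as ARF31; r = 0.994), and AT3G17090, a phosphatase gene (r = 0.994), none of them called. These values describe 6 libraries of 2 genotypes, which share any difference between genotypes; r was above 0.9 for 834 genes with RPL and for 364 with STM.

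Summed levels of some marker lists of other tissues differed between the genotypes, though not all of their genes did. The summed level of 6 embryo markers was 15.80 to 16.41 FPKM in agc1-4 and 5.25 to 7.17 FPKM in WT, and that of 5 endosperm markers was 20.84 to 21.64 and 15.61 to 18.88 FPKM. The 5 genes of lignified vessels and fibres summed to 303.69 to 343.92 FPKM in agc1-4 and 222.18 to 260.88 FPKM in WT, while the 5 of green tissue summed to 7302.07 to 7519.35 and 8502.52 to 8658.33 FPKM. None of these 4 ranges overlapped. By gene, 3 of 4 tested embryo, 1 of 4 tested endosperm and 3 of 5 lignified tissue markers were called higher and 0 lower. In green tissue 4 of 5 markers were called lower and 0 higher. Among all tested genes 7.07% were called lower and 6.55% higher. LEC1 alone made up 9.20 to 10.49 FPKM of the embryo sum in agc1-4 and 1.06 to 2.69 FPKM in WT; without it, left out after its level was seen, the other 5 markers summed to 5.37 to 7.21 FPKM in agc1-4 and 3.46 to 4.48 FPKM in WT, still without overlap. The embryo gene WOX9, the endosperm gene AGL62 and the fibre genes NST1 and NST3 were not called (adjusted p = 0.685, 0.615, 0.515 and 0.507). Seed coat markers (639.69 to 715.41 FPKM in agc1-4, 546.80 to 741.41 FPKM in WT) and pollen markers (109.28 to 127.54 and 85.89 to 113.23 FPKM) overlapped. BAN, at a mean of 509 FPKM in agc1-4 and 470 FPKM in WT, made up most of the seed coat sum. By gene, 2 of 5 seed coat markers, TT8 and TT10, were called higher (adjusted p = 0.00262 and 0.0189) and 0 lower. Pollen had 0 of 4 called.

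Of the 5 markers of floral meristems and buds, the petal and stamen gene AP3 made up nearly all of the sum, which was 236.89 to 238.23 FPKM in agc1-4 and 184.82 to 218.14 FPKM in WT. AP3 itself was called higher (adjusted p = 0.00396). Without AP3, left out after its level was seen, the other 4 (AP1, LFY, TFL1 and PI) summed lower in every agc1-4 library. Sums were 4.90, 3.95 and 3.34 FPKM in agc1-4 replicates 1 to 3 and 6.37, 8.02 and 6.48 FPKM in WT replicates 1 to 3. None of these 4 genes was called: AP1 and PI had adjusted p = 0.204 and 0.0823, and LFY and TFL1 had too few counts for a test. No marker in the 7 lists was at 0 counts in all libraries. The part of these tissues in the lower levels of RPL, STM, KNAT1 and KNAT6 was not tested.

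**Figure D5:**
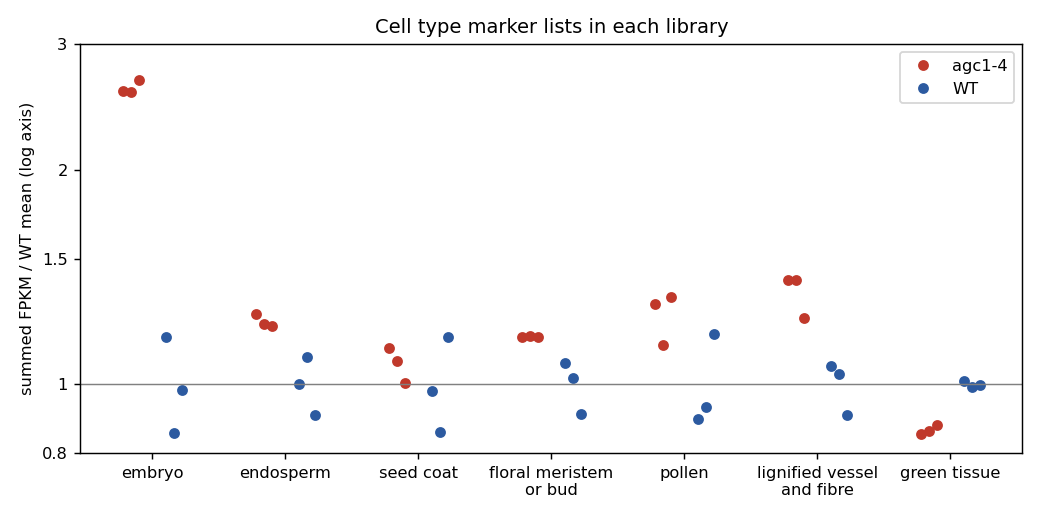
Summed FPKM of 7 marker lists in each library divided by the WT mean of that list (log axis), agc1-4 in red and WT in blue. Embryo, endosperm, floral and lignified tissue lists are higher in all agc1-4 libraries, green tissue is lower in all, and seed coat and pollen lists overlap. The floral sum is nearly all AP3, and the other 4 floral genes summed lower in every agc1-4 library.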

How the data were processed

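The authors deposited 1 table with 12 value columns, 2 per library. Of these, 6 hold estimated counts, per the file headers, of which 4.32% to 4.86% per library were not whole, and 6 hold FPKM as computed by the authors, per the file headers. Aligner, counter, build and strand are not given in the sources used here. RefSeq (TAIR10.1) served for names (9 of 9 members matched), overlapping genes and shared transcript stretches; no coordinates or sequences are printed because the build behind the values was not named.

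Estimated counts were rounded and tested over all genes with edgeR 4.0.16 in R 4.3.3 (TMM, filterByExpr, robust quasi-likelihood F-test, no covariates). The filter left 18828 of 27779 rows. Adjusted p-values are Benjamini-Hochberg over all tested genes, with calls under 0.05. Fold changes have agc1-4 on top, and SE came from the log2 fold change and the F statistic (its size over the root of F). The script was tested on simulated data. Alternatives were RLE factors, no filter, DESeq2 1.42.0, limma 3.58.1 on log2(FPKM + 1) and log2(FPKM + 0.1) for genes with at least 1 FPKM in 3 libraries, a replicate block, and each library left out.

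The members and lists were chosen with earlier results of these data known. Named genes are all members, every called gene of the pathway lists, the 2 lowest p-values in a list without calls, WUS, CLV3, AT5G40030, and the 3 genes most like STM and RPL. Other genes are named after their values were seen.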

Additional observations from a re-analysis of the deposited data

How the results depend on the processing

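The direction of the 7 tested members was kept in every alternative that tested them. The count of members called (4) was 1 in DESeq2, 2 in limma with either pseudocount and 1 to 4 without 1 library. The count of pathway genes called (8) was 5 in DESeq2, 4 in limma with either pseudocount and 4 to 9 without 1 library. Over all genes 2564 were called, 1590 in DESeq2 and 1688 (without agc1-4 replicate 2) to 2816 (without WT replicate 3) without 1 library. RLE factors and no filter left the same 4 members called. With the replicate number as a block 2643 of 18828 tested genes were called, 1333 of them lower and 1310 higher. That fit called the same 4 members, all lower, and 9 pathway genes, SHP1 the added one (adjusted p = 0.0492). The labels do not say what same-numbered libraries share, so the number served as a block only in this alternative. Deviations of same-numbered libraries correlated at -0.0374, 0.0151 and 0.04, and 2 of 6 libraries correlated best with their own number. With 3 libraries per group these values cannot decide whether the libraries were paired. CUC3 was not tested in limma or without agc1-4 replicate 2, and CUC1 and CUC2 were tested only without the filter or in DESeq2. Depth limits KNAT2 and the CUC genes most.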

Other observations

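Of the 13 pathway genes with too few counts for a test, mean FPKM was lower in agc1-4 for 6, higher for 5 and 0 in every library for 2. The genes named here were picked after their values were seen. LOF2, a boundary MYB gene, had 1, 0 and 0 counts in agc1-4 replicates 1 to 3 and 4, 2 and 4 counts in WT replicates 1 to 3. LOB, a boundary gene, had 0, 1 and 0 counts in agc1-4 and 1, 5 and 2 counts in WT. TFL1, a gene of inflorescence meristems from the floral marker list, had 3, 6 and 0 counts in agc1-4 and 7, 8 and 9 counts in WT. IPT7, a cytokinin synthesis gene activated by KNOX proteins, had 6, 5 and 4 counts in agc1-4 and 20, 14 and 4 counts in WT, so that WT replicate 3 was as low as the agc1-4 libraries; it was called lower only in the fit without that library. BOP2, a boundary gene, had 4, 2 and 1 counts in agc1-4 and 0, 1 and 2 counts in WT, and LAS, a gene of axillary meristems, had 9, 5 and 7 counts in agc1-4 and 8, 15 and 6 counts in WT. KNATM had 2 counts and RAX1 had 1 count, all in agc1-4 replicate 3. Without the filter none of these genes in the pathway lists was called.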
